A study of Mus musculus with 42 samples.

Results

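The metallothionein genes Mt1, Mt2 and Mt3 were followed on 42 mouse expression arrays. They were taken as the probes whose platform gene symbol was Mt1, Mt2 or Mt3. These are 3 of the 19057 genes with a symbol on the array and 3 of the 10879 genes that entered the tests. Each of them had 1 probe. Mt1 was detected on all 42 arrays, Mt2 on 29 and Mt3 on 20. The genes were selected on measured values of these arrays, namely a high Mt3 signal on day 2 of culture and high Mt1 and Mt2 signals in liver cells. Those levels are therefore described below without a test.

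The study followed mouse pluripotent cells through differentiation towards hepatocytes. Embryonic stem (ES) cells and the lines GPSC-A and GPSC-B, which are pluripotent lines derived from germline cells, were profiled before treatment (day 0) and on days 2, 7, 14, 21 and 28 of culture as embryoid bodies in a cocktail for hepatic differentiation. Each line and day had 2 arrays. Liver cells came from embryos (E16) and newborn mice of postnatal day 1 (PN1), labelled primary hepatocytes, with 3 arrays each. The labels name no strain, genotype or clone for the cells or the animals, and neither the composition of the cocktail, including any metal salt or hormone in it, nor the growth media are given in the sources used here. Whether replicates were separate cultures or animals is not stated. The p-values therefore describe the spread between these arrays, and that spread may be technical.

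Metallothioneins are small, cysteine-rich proteins that bind zinc and copper and buffer these metals in the cell. Zinc activates the transcription factor Mtf1, which binds metal response elements in the promoters of Mt1 and Mt2. Glucocorticoids and the acute phase response also raise Mt1 and Mt2, and both genes are known for high levels in fetal and neonatal liver. Mt3 is best known from the brain and is not induced by metals in the way that Mt1 and Mt2 are. Mt4, a further member, is known from stratified epithelia.

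The mouse genes lie in a cluster on chromosome 8, here in the GRCm38.p6 assembly of RefSeq. All run on the + strand in the order Mt4 (chr8:94137204-94139031), Mt3 (chr8:94152607-94154148), Mt2 (chr8:94172618-94173567) and Mt1 (chr8:94178883-94180327), and the cluster spans 43.12 kb. Mt2 ends 5.316 kb before Mt1, while 18.47 kb separate Mt3 from Mt2 and 13.58 kb separate Mt4 from Mt3. The sequences below are shown because Mt1 and Mt2 moved together over the samples and Mt3 did not follow them. The first pair gives the 250 bases before the gene's start for Mt2 (chr8:94172368-94172617) and Mt3 (chr8:94152357-94152606). The annotated Mt1 gene begins 206 bases before the start used by the promoter table, so only 30 bases of its window are shown (chr8:94179052-94179081). Capitals mark matches to TGCACNC or TGCGCNC, the core letters of a metal response element, on either strand.
Mt2: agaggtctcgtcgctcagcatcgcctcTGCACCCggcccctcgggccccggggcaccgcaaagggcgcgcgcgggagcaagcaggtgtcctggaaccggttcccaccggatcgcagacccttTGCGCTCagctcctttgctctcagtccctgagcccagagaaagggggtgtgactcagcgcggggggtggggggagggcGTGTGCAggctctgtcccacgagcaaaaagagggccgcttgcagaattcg
Mt3: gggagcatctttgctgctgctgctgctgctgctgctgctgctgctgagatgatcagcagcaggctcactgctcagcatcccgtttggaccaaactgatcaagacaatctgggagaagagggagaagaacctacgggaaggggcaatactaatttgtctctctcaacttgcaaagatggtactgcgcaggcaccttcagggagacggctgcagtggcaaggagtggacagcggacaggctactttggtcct
Mt1: gggcggtcccgctgTGCACACtggcgctcc

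The search covered 300 bases per gene, 250 before and 50 after the start. It found the core motif at 4 places in the Mt2 window, at 3 in the Mt1 window, at 1 in the Mt3 window and at 1 in the Mt4 window. Of 32851 mouse promoter windows of the same length, 25.7% held at least 1 match, 1.97% at least 3 and 0.517% at least 4. The Mt3 match lay after the start, at bases 28 to 34, so its printed stretch has no capitals. The Mt1 matches at bases 3 to 9 and 21 to 27 and the Mt2 match at bases 5 to 11 also lay after the start. Before the start Mt1 held only the match at bases -23 to -17, and Mt4 held its match at bases -91 to -85. Mt2 also held 1 match to TGACNNNGC, the letters of an antioxidant response element core, at bases -79 to -71, a motif found in 12.4% of windows. None of these matches overlapped another. A match is a description of letters and does not show a binding site, and other starts of Mt1 were not searched.

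Signals are given on the log2 scale after background correction and quantile normalisation with an offset of 16. A probe counted as detected on an array when its detection p-value was under 0.01. The log2 value of the lowest detected probe ran from 5.43 to 7.33 between arrays, so values near or under it have no order. Levels of different probes cannot be set against each other.

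The Mt1 level was high in untreated cells, fell to a low point at days 7 and 14, and stood highest in culture at day 28. In ES cells the replicates read 13.20 and 13.33 at day 0, 13.06 and 12.95 at day 2, 11.11 and 11.04 at day 7, 11.48 and 11.60 at day 14, 14.82 and 14.51 at day 21, and 14.97 and 14.64 at day 28. GPSC-A gave 12.90 and 13.31, 13.82 and 14.02, 11.42 and 12.71, 11.98 and 11.60, 14.23 and 14.45, and 14.92 and 15.17 on the same days. GPSC-B gave 13.50 and 13.10, 13.76 and 13.59, 12.26 and 12.49, 12.27 and 11.64, 14.84 and 15.11, and 15.35 and 15.40. In all 3 lines both arrays of day 7 and both of day 14 lay under every array of days 0 and 2 of the same line, and both arrays of days 21 and 28 lay over every array of days 0 to 14. The day 21 mean stood 8.73-fold over the day 14 mean (ES), 5.85-fold (GPSC-A) and 8.11-fold (GPSC-B), a step given as levels and not tested.

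In hepatocytes Mt1 read 15.69, 15.60 and 15.48 at E16 and 14.13, 14.29 and 13.46 at PN1. All 3 E16 arrays lay above every culture array. On the E16 arrays the probe ranked 21 to 32 by signal among all 45281 probes, on the day 28 cultures 36 to 85, and on the day 7 cultures 551 to 1881. The E16 mean was 1.73-fold over day 28 (ES), 1.46-fold (GPSC-A) and 1.16-fold (GPSC-B), against 5.02-fold, 5.60-fold and 4.89-fold over day 0 of the same lines. All 3 PN1 arrays lay under every day 28 array. The PN1 mean differed from day 28 by -0.84 (ES), -1.08 (GPSC-A) and -1.41 (GPSC-B) on the log2 scale.

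Mt2 took the same course at a signal closer to the background. The ES replicates read 6.48 and 7.28 at day 0, 6.85 and 7.05 at day 2, 4.68 and 4.71 at day 7, 5.06 and 5.86 at day 14, 8.78 and 8.97 at day 21, and 8.96 and 9.80 at day 28. GPSC-A read 7.07 and 5.99, 7.56 and 7.57, 6.34 and 5.62, 5.67 and 5.04, 8.75 and 7.39, and 9.68 and 9.16 in the same order of days. GPSC-B read 7.18 and 5.75, 7.70 and 6.95, 5.46 and 5.79, 5.13 and 5.12, 9.07 and 9.03, and 9.82 and 10.03. The probe was detected on 4 of 6 arrays at day 0, on all 6 at day 2, on 1 of 6 at day 7 and again at day 14, and on all 6 at days 21 and 28. From day 14, with no detected array in ES or GPSC-B, the day 21 mean was at least 8.40-fold higher in ES and at least 9.97-fold higher in GPSC-B. For such a bound, each undetected array enters with its lowest detected signal, or with the probe's value where that is higher. In GPSC-A, where 1 of 2 day 14 arrays detected Mt2, the day 21 mean was 6.56-fold higher.

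E16 hepatocytes gave 10.98, 11.42 and 9.74 for Mt2, and PN1 hepatocytes gave 8.36, 8.28 and 5.34, the last not detected. The E16 values lay above every array of days 0 to 21 and overlapped day 28 of ES and of GPSC-B. The E16 mean was 2.52-fold over day 28 (ES), 2.45-fold (GPSC-A) and 1.73-fold (GPSC-B). Every PN1 array lay under every day 28 array.

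Mt3 followed a different course, with its highest level at day 2. The ES replicates read 6.25 and 4.63 at day 0, 9.75 and 8.59 at day 2, 5.60 and 4.61 at day 7, 5.65 and 4.78 at day 14, 8.62 and 6.54 at day 21, and 8.16 and 7.03 at day 28. GPSC-A read 8.50 and 7.50, 9.95 and 8.85, 4.93 and 4.88, 5.60 and 5.27, 6.83 and 5.22, and 9.50 and 6.69. GPSC-B read 8.43 and 5.13, 9.81 and 7.22, 5.64 and 5.04, 4.94 and 4.62, 5.60 and 5.31, and 6.52 and 6.86. Detection followed the days, with 4 of 6 arrays at day 0, 6 of 6 at day 2, 0 of 6 at day 7, 1 of 6 at day 14, 3 of 6 at day 21 and 6 of 6 at day 28. The day 2 mean was 13.2-fold over day 0 in ES and 2.64-fold in GPSC-A, with no overlap of the arrays, and 3.32-fold in GPSC-B, where the arrays overlapped. Replicate 2 of day 0 did not detect Mt3 in ES (4.63, lowest detected value 6.29) or in GPSC-B (5.13, lowest detected value 5.82). The folds of ES and GPSC-B therefore rest partly on values without order and cannot be ranked against GPSC-A. At day 7 the mean was at least 8.86-fold lower than at day 2 in ES, at least 11.9-fold lower in GPSC-A and at least 6.65-fold lower in GPSC-B.

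In liver cells Mt3 was not detected on any array. Its values were 6.40, 6.15 and 4.72 at E16 and 5.20, 5.61 and 4.96 at PN1. The highest 2 values of Mt2 lay among the E16 arrays. Mt4 was detected on 0 of 42 arrays and was not tested. Markers of neural cells, where Mt3 is best known, were mostly not detected at day 2. Of 9 such genes with a probe, 7 were detected on no array in each line at day 2, Tubb3, Pax6 and Dcx among them. Tubb3 and Pax6 were undetected in every other group too, so their absence does not mark day 2. The other 2, Nes and Map2, were detected on both day 2 arrays of ES and of GPSC-A, but not on both of GPSC-B. The summed log2 level of the 9 genes was 8.12 to 8.98 at day 2 against 8.36 to 8.88 at day 0 and 8.39 to 9.01 at day 7. At day 28, where all 6 arrays detected Mt3, the sum was 8.63 to 10.08 and lay lowest in ES.

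**Figure D1:**
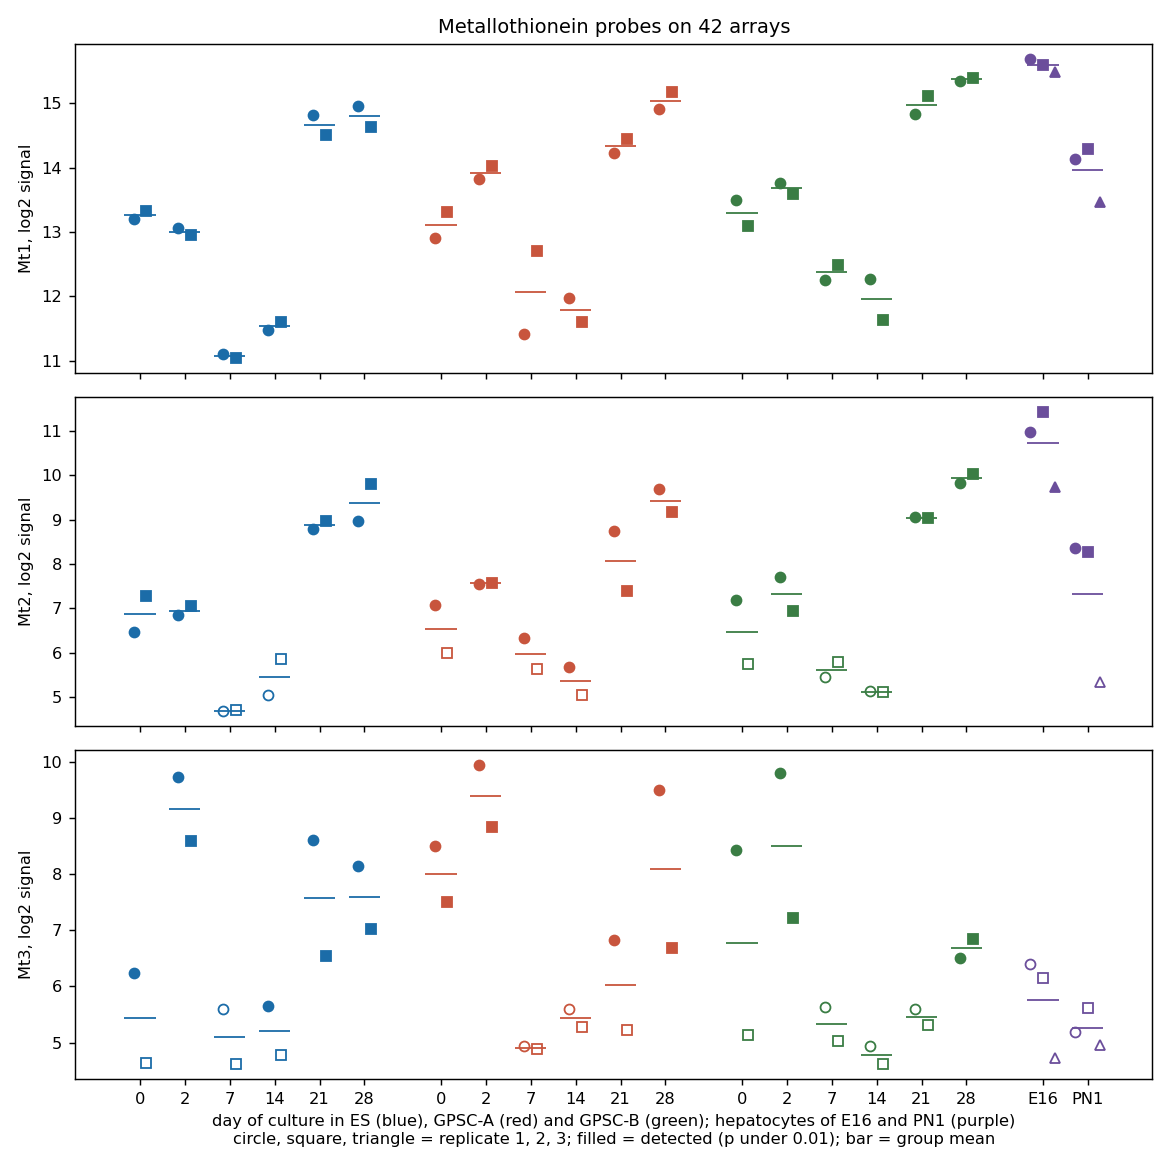
Log2 signal (vertical axis) of the Mt1, Mt2 and Mt3 probes on each of the 42 arrays, by line and day of culture and for hepatocytes. Filled symbols are detected, open symbols are not, and bars are group means. Mt1 and Mt2 dip at days 7 and 14 and are highest at E16, where Mt1 reaches 15.69 and Mt2 11.42, while Mt3 reaches 9.95 at day 2 and is undetected on all 6 hepatocyte arrays.

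Ordered by group mean, Mt1 stood highest at E16, followed by GPSC-B day 28, GPSC-A day 28, GPSC-B day 21, ES day 28, ES day 21, GPSC-A day 21 and PN1, and lowest in ES at day 7. The E16 arrays did not overlap GPSC-B day 28, nor GPSC-B day 28 GPSC-A day 28. From GPSC-A day 28 to ES day 21, each neighbour in this order overlapped the next. For Mt2 the order began with E16, GPSC-B day 28, GPSC-A day 28 and ES day 28, and E16 overlapped GPSC-B day 28. Mt3 stood highest in GPSC-A, ES and GPSC-B at day 2, then in GPSC-A at day 28 and day 0, and all neighbours in its order of 20 groups overlapped.

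The first tested question was how far the untreated cells differed from the cells at the end of culture. Mt1 and Mt2 both rose from day 0 to day 28 in all 3 lines. The Mt1 change was 1.54 ± 0.31 in ES (log2 ± SE, n = 2 arrays per group), 1.94 ± 0.31 in GPSC-A and 2.07 ± 0.31 in GPSC-B, which is 2.90-fold, 3.83-fold and 4.21-fold. The adjusted p-values of the limma fit were 0.000217, 1.49e-05 and 4.81e-06. Mt2 rose by 2.50 ± 0.68 (ES), 2.89 ± 0.68 (GPSC-A) and 3.46 ± 0.68 (GPSC-B), which is 5.67-fold, 7.42-fold and 11.0-fold, with adjusted p of 0.00376, 0.00125 and 0.000164 in the limma fit. A gene was called at an adjusted p under 0.05, over all genes, and a change of at least 2-fold. By that rule 17.3% of the 10879 genes were called higher at day 28 (ES), 15.3% (GPSC-A) and 16.8% (GPSC-B), so a rise was common.

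The call of Mt1 in ES was lost when arrays were scaled to a common median instead of quantile normalised (1.28, adjusted p = 0.0718 in limma), while the calls of GPSC-A and GPSC-B held. The call of Mt2 in ES was lost without replicate 1 of day 0 (2.10, adjusted p = 0.0564) and without replicate 2 of day 28 (2.08, adjusted p = 0.0586). In bulk samples such as these, fewer cells of a type and less RNA per cell cannot be told apart. Hepatocyte markers moved in the same direction. Their summed log2 level over 10 genes was 8.51 to 8.83 at day 0 and 11.76 to 12.58 at day 28, where 5 or 6 of 10 were detected on both arrays of a line while Alb, the gene of serum albumin, and Fgb were detected on none. Fibroblast and stellate cell markers also moved, from 9.68 to 10.82 at day 0 to 12.72 to 13.90 at day 28, where 5 or 6 of 6 were detected. Macrophage markers ran from 7.75 to 12.73 at day 28, and those of ES lay highest, against 7.48 to 7.94 at day 0. Pluripotency markers went the other way, from 14.72 to 15.74 at day 0, with 6 of 6 detected on both arrays of each line, to 9.69 to 10.88 at day 28, with 2 to 4 of 6. The part of these cell types in the rise was not tested.

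Mt3 did not pass the test between day 28 and day 0 in any line. The changes were 2.15 ± 0.92 (ES), 0.10 ± 0.92 (GPSC-A) and -0.10 ± 0.92 (GPSC-B), with adjusted p of 0.0664, 0.955 and 0.955 in the limma fit. With the replicate number as a block within each line the spread of Mt3 was smaller, and the ES change of 2.15 ± 0.64 passed (adjusted p = 0.00704). It also passed with only the 2 groups in the fit (adjusted p = 0.0292 in limma). Without replicate 1 of day 0 the ES change was 2.96, but the remaining day 0 array did not detect Mt3 (4.63, lowest detected value 6.29). The ES change of 2.15 includes that array too, so its size rests partly on a value without order. The sign of the change in GPSC-A and GPSC-B depended on single arrays. It ran from -1.31 to 1.50 in GPSC-A and from -1.75 to 1.56 in GPSC-B when each of the 4 arrays was left out in turn, and the lowest value came without replicate 1 of day 28 in GPSC-A.

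Early in culture, from day 0 to day 2, neither Mt1 nor Mt2 was called in any line. The Mt1 changes were -0.26 ± 0.31 (ES), 0.82 ± 0.31 (GPSC-A) and 0.38 ± 0.31 (GPSC-B), with adjusted p of 0.739, 0.238 and 0.891 in limma. For Mt2 they were 0.07 ± 0.68, 1.04 ± 0.68 and 0.86 ± 0.68, with adjusted p of 0.977, 0.741 and 0.882. Over all genes 8.02% were called (ES), 2.95% (GPSC-A) and 1.65% (GPSC-B). The sign of the small Mt2 change in ES turned under median scaling (-0.54) and when replicate 1 of day 0 was left out (-0.33).

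Hepatocytes of the older animals had lower Mt1 and Mt2 signals than those of the embryos, with no overlap of the 3 arrays of each age. The mean at PN1 was 3.10-fold lower for Mt1 and 10.5-fold lower for Mt2, given without a test because the liver signals chose these genes. The lowest Mt2 array, replicate 3 of PN1, did not detect Mt2 (5.34, against a lowest detected value of 7.33). The 10.5-fold difference therefore rests partly on a value without order. The same array was the lowest hepatocyte array for Mt1. With each array left out in turn, the log2 difference of PN1 minus E16 ran from -1.79 to -1.38 for Mt1 and from -3.90 to -2.40 for Mt2, where the value of -2.40 came without replicate 3 of PN1. Mt3 was undetected at both ages.

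Other features of the arrays differed between the ages as well. Fewer probes were detected at PN1 (8427 to 9287 per array) than at E16 (9882 to 11539). Hepatocyte markers summed to 15.21 to 15.39 at PN1 against 17.55 to 17.79 at E16. Of the 10 markers 6 were detected on all PN1 arrays and 9 on all E16 arrays. Alb, Ttr, Fgb and Cps1 were detected on no PN1 array, and Fgb on no E16 array either. The absence of Alb, Ttr and Cps1 goes against the hepatocyte label of the PN1 samples, while the 6 detected markers go with it. All 5 erythroid markers with a probe were detected on every hepatocyte array, with sums of 17.06 to 17.13 at E16 and 17.17 to 17.18 at PN1. Macrophage markers summed to 13.11 to 13.71 at E16 and 13.80 to 14.09 at PN1. Their part in the lower Mt1 and Mt2 was not tested.

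**Figure D2:**
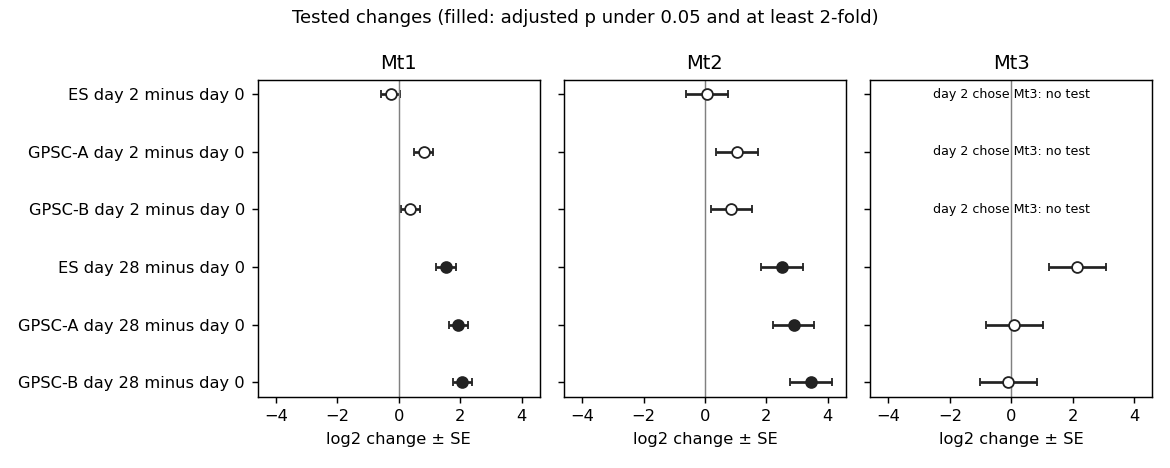
Change of each gene from day 0 to day 2 and to day 28 on the log2 scale (horizontal axis) with its standard error, from the fit of all 20 groups. Filled points were called. Mt1 and Mt2 rise by 1.54 to 3.46 from day 0 to day 28, and no Mt3 change was called. Comparisons of Mt3 with day 2 have no point because that level chose the gene.

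The genes were also compared between the 3 lines on each day, in 18 contrasts for Mt1 and for Mt2 and in 15 for Mt3, whose day 2 level chose it. Over all genes, GPSC-A against ES called 2.92%, 2.74%, 7.73%, 5.96%, 7.51% and 7.45% from day 0 to day 28, and GPSC-B against ES called 2.02%, 3.47%, 5.98%, 4.75%, 6.14% and 5.9%. GPSC-B against GPSC-A called 0.156%, 0.211%, 0.313%, 0.221%, 1.15% and 0.349%. Mt1 was called in 1 of 18, at day 7, where GPSC-B lay 1.30 ± 0.31 above ES (adjusted p = 0.00763 in limma, with 3.01% of genes called higher there). That call was lost under median scaling (1.76, adjusted p = 0.0515), without replicate 2 of ES at day 7 (1.27, adjusted p = 0.0835) and without replicate 2 of GPSC-B at day 7 (1.18, adjusted p = 0.116). GPSC-A lay 0.99 above ES on the same day with an adjusted p of 0.0457, a change under 2-fold. Without replicate 1 of GPSC-A at day 7, the low one of its pair, it was called (1.63, adjusted p = 0.0013). Mt1 passed an unadjusted p of 0.05 in 4 of the 18 contrasts.

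Mt2 was called in 0 of 18 contrasts between lines, and in 0 at an unadjusted p under 0.05 in limma. Its differences ran from -0.81 to 1.29. With the replicate block 1 contrast passed, GPSC-A against ES at day 7 (1.29 ± 0.38, adjusted p = 0.0254 in limma), beside 10.7% of all genes. There 0 of 2 ES arrays and 1 of 2 GPSC-A arrays detected Mt2, so the difference lies near or under detection. With only the 2 groups in the fit the count was also 1. Mt3 was called in 0 of 15, with 2 at an unadjusted p under 0.05. These were GPSC-A against ES at day 0 (2.56 ± 0.92, adjusted p = 0.166) and GPSC-B against ES at day 21 (-2.13 ± 0.92, adjusted p = 0.215), where GPSC-B was undetected. Both passed with the replicate block, with adjusted p of 0.0132 and 0.028 in limma, beside 5.5% and 9.17% of all genes. The day 21 difference was -1.09 without replicate 1 of ES, the higher of that pair, and the day 0 difference ran from 1.75 to 3.37 with each array left out in turn. Whether the changes over time differed between lines was tested in 15 interaction contrasts, of which 0 passed in limma and 1 had an unadjusted p under 0.05. That one was the day 2 change of Mt1 in GPSC-A against ES (1.08 ± 0.44, adjusted p = 0.475).

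Over the group means Mt1 and Mt2 were each other's nearest gene. Their Pearson correlation was 0.975 over 20 groups and 0.979 over the 18 culture groups, the highest of 10878 other genes for both. Mt3 correlated with Mt1 at 0.391 over 20 groups and 0.506 over the cultures, and with Mt2 at 0.357 and 0.480. These are descriptions over group means that share arrays, normalisation and days of culture. The hepatocyte groups, whose signals chose Mt1 and Mt2, enter the 20 groups but not the 18, while day 2, which chose Mt3, enters both. Probe sequences were not examined, so binding of Mt1 or Mt2 RNA to the probe of the other gene could not be checked. Between replicate arrays of 1 group the picture was different, since the replicate 1 minus replicate 2 differences of Mt1 and Mt2 correlated at -0.15 over the 18 culture groups.

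After Mt2, the genes most like Mt1 over 20 groups were Fkbp5 (0.904), a co-chaperone of the glucocorticoid receptor, Gcnt2 (0.904), a glycosyltransferase, Klf9 (0.892), a zinc finger transcription factor, and Aox3 (0.878), an aldehyde oxidase. Over the cultures alone Fkbp5 (0.972), Fbxo2 (0.959), Upk3bl (0.943) and Mmp10 (0.924) came next. Fkbp5 had group means of 7.93 at day 0, 5.67 at day 14 and 9.54 at day 28 in ES. From E16 to PN1 it rose by 1.49 ± 0.34 (adjusted p = 0.00107 in limma), opposite to Mt1 and Mt2. For Mt2 the list after Mt1 was Gcnt2 (0.897), Aox3 (0.896), S100a16 (0.888), a calcium-binding protein, and Esyt2 (0.862), and over the cultures Upk3bl (0.963), Fbxo2 (0.950), Tmie (0.945) and Fkbp5 (0.945).

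For Mt3 the most similar genes were Diras1 (0.907), a small GTPase of the Ras family, Syt4 (0.891), a synaptotagmin, Eef1a2 (0.866), the translation elongation factor form of neurons and muscle, Tor3a (0.834) and Acsl4 (0.832), an acyl-CoA synthetase. Over the cultures alone the first 3 were the same, at 0.916, 0.898 and 0.873, followed by Tmem41a (0.848) and Acsl4 (0.840). The Eef1a2 group mean was 6.46 at day 0, 8.11 at day 2 and 5.94 at day 7 in ES, and 4.96 at E16.

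**Figure D3:**
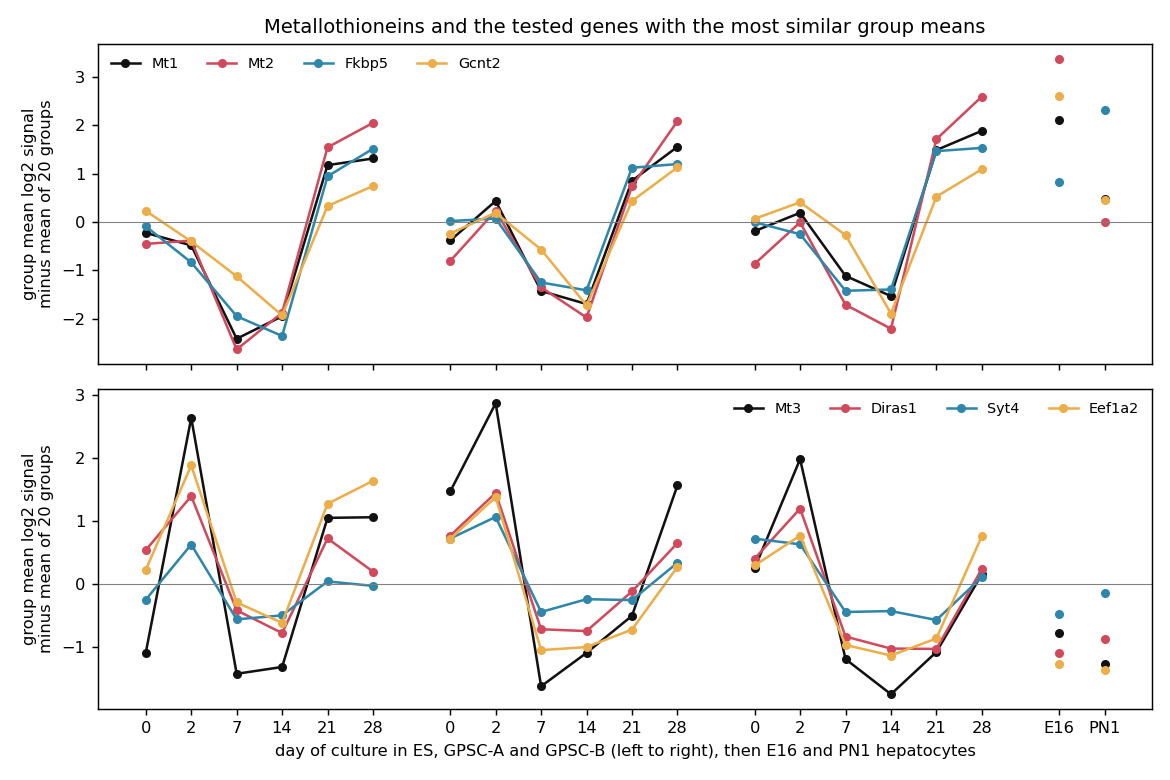
Group mean log2 signal of each gene minus its mean over the 20 groups (vertical axis) for Mt1 and Mt2 with Fkbp5 and Gcnt2 (top) and Mt3 with Diras1, Syt4 and Eef1a2 (bottom). Lines join the days of 1 line, and hepatocytes are single points. The upper genes share the dip at days 7 and 14, and at PN1 Fkbp5 stands above them. The lower genes share a high day 2 in ES and GPSC-A.

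The replicate arrays disagreed on Mt3 in a regular way. Replicate 1 exceeded replicate 2 in 17 of the 18 culture groups, with GPSC-B at day 28 as the exception, and the mean difference was 1.19 on the log2 scale. Ordered by the signed mean of replicate 1 minus replicate 2, Mt3 stood in place 22 from the top among the 10879 genes tested. Genes with larger differences in the other direction do not enter that place. Mt1 was higher in replicate 1 in 8 of 18 groups, with a mean difference of -0.04, and Mt2 in 9 of 18, with 0.17. Over all genes, 9.27% moved in 1 direction in at least 17 of the 18 pairs. The same 17 of 18 pairs held for Mt3 in the authors' processed values. The largest gap, 3.30, was at day 0 in GPSC-B, where replicate 1 detected Mt3 and replicate 2 did not.

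**Figure D4:**
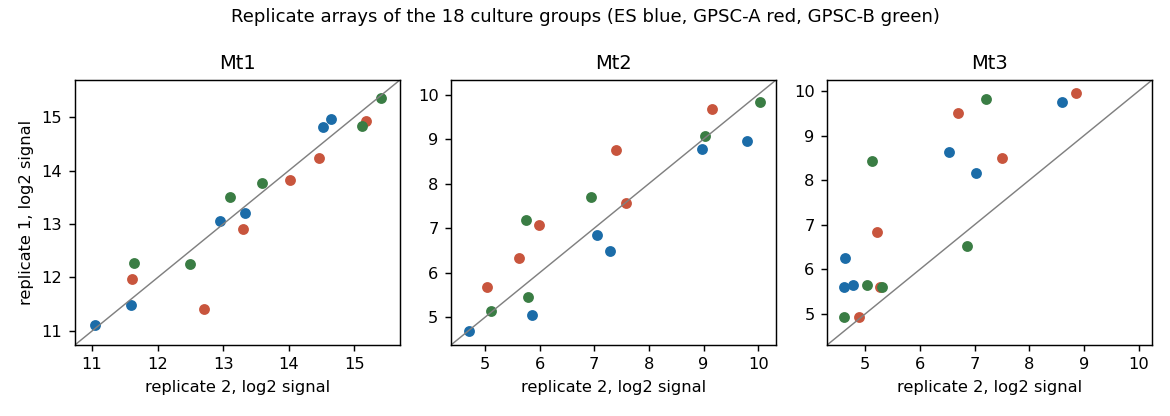
Replicate 1 (vertical) against replicate 2 (horizontal), log2 signal, for the 18 culture groups of the 3 genes. The grey line marks equal values. Mt3 lies above the line in 17 of 18 groups, Mt1 in 8 and Mt2 in 9.

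Genes that handle zinc were examined beside the family. The zinc list held 25 genes (Mtf1 and the Slc30 and Slc39 transporters), 24 of them with a probe and 15 tested. At day 28, 3 rose and 2 fell in ES, and 1 rose and 2 fell in GPSC-A. In GPSC-B 3 rose and 2 fell. Over all genes 17.3% (ES), 15.3% (GPSC-A) and 16.8% (GPSC-B) rose, and 16.5%, 13.5% and 15.2% fell. In either direction 33.8%, 28.8% and 32% changed, and counts in a list of 15 cannot be set apart from these shares. The median change was 0.44 (ES), 0.74 (GPSC-A) and 0.45 (GPSC-B), against 0.00, 0.02 and 0.06 over all genes tested. Slc39a13, a zinc transporter of the secretory pathway, rose by 2.56 ± 0.50 in ES (adjusted p = 0.000123 in limma). Slc30a3, a transporter known from synaptic vesicles, changed by -2.55 ± 0.41 (ES), -1.98 ± 0.41 (GPSC-A) and -1.53 ± 0.41 (GPSC-B), called in each. Slc39a4, the intestinal zinc importer, fell by 1.80 ± 0.35 in GPSC-A and was 3.99-fold lower in GPSC-B. None of the 15 was called between day 0 and day 2, where 8.02% (ES), 2.95% (GPSC-A) and 1.65% (GPSC-B) were called over all genes. For a list of 15 this cannot be set apart from those shares. The replicate block called Slc39a13 lower in GPSC-A and GPSC-B, beside 4.6% and 2.84% called over all genes.

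From E16 to PN1, 5 of the 15 zinc genes were called lower and 0 higher, against 13.5% lower and 10.3% higher over all genes, or 23.8% in either direction. Slc39a5, a zinc importer, was detected on every E16 array and on no PN1 array, at least 3.10-fold lower. Slc30a3 was at least 2.52-fold lower and Slc30a10 at least 2.19-fold lower. Mtf1 was detected on all 42 arrays with culture means of 7.25 to 9.14, and was called in 0 of the 7 comparisons, with changes from -0.67 in ES at day 28 to 0.67 in ES at day 2 (adjusted p = 0.106 and 0.235 in limma; 2 of 7 had an unadjusted p under 0.05). Slc30a1, the zinc exporter that Mtf1 is known to induce, and Slc39a10, which it is known to repress, were detected on 0 arrays and not tested.

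Of 12 genes of copper handling 10 were tested. At day 28, 1 rose (ES), 2 (GPSC-A) and 3 (GPSC-B), beside 17.3%, 15.3% and 16.8% higher over all genes, and 0 fell. Counts this small in a list of 10 cannot be set apart from those shares. Cp, ceruloplasmin, the copper-carrying ferroxidase of plasma, was at least 2.94-fold higher in ES and at least 4.25-fold higher in GPSC-A, and rose by 2.46 ± 0.48 in GPSC-B (adjusted p = 0.00016 in limma). Slc31a1, the copper importer, rose by 1.96 ± 0.33 in GPSC-A and 1.62 ± 0.33 in GPSC-B. At PN1 Cp was detected on no array and lay at least 12.9-fold lower than at E16.

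Glucocorticoids and the acute phase response are other known inducers of Mt1 and Mt2, and most tested genes listed for them were higher at day 28. The list names genes of these responses and not the inducing signals, and it was chosen with earlier results of these data known. Hepatocyte markers also rose by day 28, and their part in these counts was not tested. Of 17 tested, 12 rose and 1 fell in ES, while 14 rose and 0 fell in GPSC-A and likewise in GPSC-B, beside 17.3%, 15.3% and 16.8% higher over all genes. Their median change was 1.88, 1.80 and 2.44, against 0.00, 0.02 and 0.06 over all genes. Hp, haptoglobin, an acute phase protein of the liver, was at least 330-fold higher in ES, at least 171-fold in GPSC-A and at least 127-fold in GPSC-B. Lcn2, lipocalin 2, was at least 270-fold, 126-fold and 199-fold higher. Tsc22d3, a gene induced by glucocorticoids, rose by 5.88, 5.62 and 5.32 (± 0.44), and Fkbp5 by 1.61, 1.18 and 1.54 (± 0.42, adjusted p = 0.00284, 0.0301 and 0.0045 in limma). Fkbp5 was named for group means like those of Mt1, which rose over the same groups, so its p-values are not independent of that choice. Klf9, which ranked among the genes most like Mt1, was not called (-0.10, 0.31 and 0.54). From E16 to PN1, 2 of these genes were called higher and 5 lower, beside 10.3% and 13.5% over all genes. Tsc22d3 rose by 1.82 ± 0.36 while Hpx, hemopexin, fell by 3.48 ± 0.38.

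At day 2 some of the same genes were lower. In ES 4 of 17 were called lower and 0 higher, against 5.45% lower over all genes, and in GPSC-A 2 were lower, against 2.38%. Il6ra, a chain of the interleukin 6 receptor, and Socs3, a feedback inhibitor of that pathway, were undetected at day 2 in ES, at least 3.59-fold and at least 3.96-fold lower. Stat3 fell by 2.04 ± 0.29 in ES and by 1.14 ± 0.29 in GPSC-A. In GPSC-B 0 of the 17 were called, while with the replicate block Stat3 (-1.06 ± 0.22) and Socs3 (-1.48 ± 0.32) were. The 6 lists held 15, 10, 17, 9, 13 and 8 tested genes. Together 9 of these genes were called at day 2 (ES), 4 (GPSC-A) and 0 (GPSC-B), beside 8.02%, 2.95% and 1.65% over all genes. With the block the GPSC-A and GPSC-B counts were 7 and 5, beside 4.6% and 2.84% over all genes. Without replicate 2 of ES day 2 the ES count was 5. The GPSC-A count was 2 without replicate 1 of day 0 and 0 without replicate 2 of day 0 or replicate 2 of day 2, and the GPSC-B count was 1 without replicate 2 of day 2.

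Hypoxia and oxidative stress, which are also known to induce Mt1 in mice, were covered by a list each. Of 9 hypoxia genes tested, 5 (ES), 6 (GPSC-A) and 5 (GPSC-B) were called higher at day 28 and 0 lower, beside 17.3%, 15.3% and 16.8% higher over all genes. At PN1 4 were lower and 0 higher, beside 13.5% lower over all genes. Ndrg1, a hypoxia-induced gene, rose by 3.35, 3.80 and 4.16 (± 0.37) and fell by 2.71 ± 0.31 from E16 to PN1. Vegfa, a vascular growth factor, fell by 3.37 ± 0.34 in ES and by 1.60 ± 0.34 in GPSC-A at day 2 and rose by 1.56, 2.62 and 2.62 at day 28. Pdk1, of the same list, rose at day 2 by 1.86 ± 0.52 in both ES and GPSC-A (adjusted p = 0.0193 and 0.0427 in limma). At day 2 the hypoxia list thus had 1 gene higher and 1 lower in each of these lines and 0 called in GPSC-B. Over all genes 8.02% (ES), 2.95% (GPSC-A) and 1.65% (GPSC-B) were called.

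Most of the 13 tested genes of oxidative stress and glutathione metabolism were not called at day 28. In this list 1 rose and 2 fell in ES, and 0 rose and 4 fell in GPSC-A. In GPSC-B 0 rose and 3 fell. Over all genes 17.3%, 15.3% and 16.8% rose and 16.5%, 13.5% and 15.2% fell in the 3 lines. For 13 genes the counts cannot be set apart from these shares. Nqo1, a quinone reductase, changed by -1.40, -1.75 and -2.29 (± 0.35). At PN1 5 were higher and 1 lower, beside 10.3% and 13.5% over all genes, with Nqo1 up by 3.03 ± 0.29 and Slc7a11, the cystine importer, up by 3.93 ± 0.55.

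Of 8 tested neighbours of the cluster on chromosome 8, 1 was higher and 1 lower at day 28 in ES, and 2 were higher and 1 lower in both GPSC lines. For 8 genes these counts cannot be set apart from the 15.3% to 17.3% higher and 13.5% to 16.5% lower over all genes. Nup93, a nuclear pore protein and the nearest tested gene beyond Mt1, fell by 1.86, 1.84 and 1.77 (± 0.41), where Mt1 rose. Gnao1, a G protein subunit, rose by 2.06, 2.16 and 2.50 (± 0.42). At PN1 Herpud1, a gene of the endoplasmic reticulum stress response, fell by 1.44 ± 0.42 and Cpne2 rose by 2.80 ± 0.35.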

How the data were processed

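Total RNA was hybridised to Illumina BeadChips, 1 array per sample. The deposited scanner table gives a signal intensity per probe on a linear scale, and per the file headers it was not normalised. It also gives a detection p-value that the authors deposited. The submitters' processing notes name GenomeStudio. The authors' processed intensity, in the deposited series matrix, has column medians of 133.31 to 133.34 and was used as an alternative, since the sources used here do not give its normalisation.

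The members and the gene lists were chosen with earlier results of these data known. Of 45281 probes, 34885 had 1 symbol, 18 several and 10378 none, from the platform annotation. Probes with a detection p under 0.01 on at least 2 arrays were kept (19251). The kept probe with the highest mean stood for a gene, which gave 10879 genes. The neqc function of limma 3.58.1 (R 4.3.3) corrected the background, normalised by quantiles and took log2 with an offset of 16. One limma model with 20 groups was fitted (22 residual degrees of freedom), with Benjamini-Hochberg adjustment over all genes, and adjusted p-values are two-sided and from this fit. The planned tests of PN1 against E16 for the members, and of Mt3 between lines at day 2, are not given because those levels chose the genes. The steps were tested on simulated data.

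Genes named were the members, Mtf1, Slc30a1, Slc39a10 and Mt4, up to 3 called genes with the largest changes per list and comparison, and the 5 genes most like each member. Fkbp5, Klf9 and Tsc22d3 at day 28, and Stat3, Socs3 and Slc39a13 under the block, were named after their values were seen. Replicate numbers paired the culture arrays, since the differences between replicates correlated over 0.1 in 15 of 15 pairs of days within each line. They did not pair the hepatocytes (0 of 3). Between lines the replicate differences also correlated over 0.1, in 88 of 108 pairs of groups (median 0.25). The main fit ignores this pairing, which entered only in the alternative with the replicate block. Arrays detected 8427 to 15123 probes, and their number limits the precision. Plots used matplotlib 3.10.9 under Python 3.11.15. Promoter windows came from RefSeq (GRCm38.p6).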

Additional observations from a re-analysis of the deposited data

How the results depend on the processing

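Alternatives were no background correction, median scaling, the authors' processed values, an offset of 50, no detection filter, detection on at least 6 arrays, only the 2 groups in the fit, a replicate block and each array left out in turn. Each member had 1 probe, so the use of another probe gave no value, and entering every kept probe as a row of its own changed no call of a member and moved 3 of 7 counts of list genes, each by 1. Median scaling moved the median of all genes to -0.36 in ES at day 2, at day 28 to -0.15 (ES), 0.19 (GPSC-A) and -0.11 (GPSC-B), -0.17 at PN1 and 0.33 for GPSC-B against ES at day 7. Under it Mt2 in ES at day 2 turned to -0.54, Mt1 in ES at day 28 was 1.28 (adjusted p = 0.0718), Mt1 in GPSC-B against ES at day 7 was 1.76, the count of Mt1 line contrasts was 0, and list genes at day 2 numbered 4 in ES and 0 in GPSC-A. List genes at day 2 numbered 2 in GPSC-A without background correction and in the authors' values, and 1 in GPSC-B with an offset of 50, with no filter and with the stricter filter. With only the 2 groups in the fit Mt3 in ES at day 28 passed (2.15), 1 Mt2 line contrast passed, and list genes at day 2 numbered 2 in ES and 0 in GPSC-A. The replicate block let Mt3 pass in ES at day 28 (2.15), in GPSC-A against ES at day 0 (2.56) and in GPSC-B against ES at day 21 (-2.13), gave 1 Mt2 and 2 Mt3 line contrasts and 7 and 5 list genes at day 2 in GPSC-A and GPSC-B, and changed no other call of a member. The causes were not tested.

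With each array left out in turn, Mt2 in ES ran from -0.33 to 0.47 at day 2 and from 2.08 to 2.92 at day 28, and Mt3 at day 28 from 1.34 to 2.96 in ES, from -1.31 to 1.50 in GPSC-A and from -1.75 to 1.56 in GPSC-B. Mt1 in GPSC-B against ES at day 7 ran from 1.18 to 1.42, and in GPSC-A against ES from 0.34 to 1.63. The count of Mt1 line contrasts ran from 0 to 2, and list genes at day 2 from 5 to 8 in ES, from 0 to 3 in GPSC-A and from 0 to 1 in GPSC-B. Over all genes, the lowest count called was 2342 of 3682 (ES), 1879 of 3131 (GPSC-A) and 2124 of 3482 (GPSC-B) at day 28 and 1396 of 2588 at PN1, all without background correction, and 202 of 873, 19 of 321 and 0 of 180 at day 2 with only the 2 groups in the fit. With the block the GPSC-A and GPSC-B counts at day 2 were 500 and 309. Signals near background limit Mt2 at days 7 and 14 and Mt3 outside day 2.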
